A study of Mus musculus with 24 samples.

Results

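The blood and lymphatic endothelial genes described here are 33 mouse genes known from the cells lining vessels, picked by symbol from a table of 45777 genes. Some of them, such as Angpt1, Icam1 and Vcam1, are also made by other cells. They comprise 11 surface, junction and secreted proteins, 4 angiopoietins and Tie receptors, 4 transcription factors, 6 venular adhesion and activation genes, 5 arterial and tip cell genes and 3 lymphatic genes. All 33 were found, with 1 row each, and all passed the low-count filter in both tissues. RNA sequencing measured them in skin and in dorsal root ganglia (DRG), where the cell bodies of sensory neurons sit together with glia and a dense capillary bed. The animals were BALB/c females of 6 weeks. There were 24 libraries in 4 groups of 6: model skin, control skin, model DRG and control DRG. Model mice received LL37, a cathelicidin antimicrobial peptide used to produce rosacea-like skin inflammation, at 320 µM in 40 µL, injected into the skin 2 times a day for 2 days. The study's design text also names oral gabapentin, 100 mg/kg from day 3, and DRG collection on day 4. No sample label names gabapentin, and the sources used here do not state which animals received it, what control mice were given or when skin was taken. Whether each library is a different animal is not stated in the labels, so p-values describe the spread between these libraries, part of which may be technical.

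Endothelial cells line every blood and lymphatic vessel. They hold to each other through junction proteins such as VE-cadherin and claudin-5, and angiopoietins acting on the Tie receptors are known to regulate how stable and how leaky that lining is. In inflamed skin, venules display selectins and immunoglobulin-family adhesion molecules that slow and capture leukocytes from the blood. Sprouting vessels carry tip cells that express Dll4 and apelin, and lymphatic endothelium depends on the transcription factor Prox1.

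Total counts per library were 46549562 to 63531350 in model skin, 45238735 to 64547448 in control skin, and in DRG 47801198 to 68396846 for model and 52273676 to 63544026 for control libraries. The tissue labels were checked against marker genes. The 6 keratinocyte genes summed to 6846 to 18347 CPM (the usual count unit per library size, here with TMM scaling) in model skin and 10030 to 23506 CPM in control skin, but to at most 3.83 CPM in any DRG library. In DRG, sensory neuron and glia genes summed to 11254 to 14242 CPM in model libraries and 10214 to 14810 CPM in control libraries. The endothelial genes together summed to 489 to 743 CPM in model skin, against 290.0 to 429 CPM in control skin. In DRG they summed to 320 to 514 CPM in model libraries, against 314 to 718 CPM in control libraries. The value of 718 CPM belonged to 1 library, DRG control 6, and the other 5 control DRG libraries lay between 314 and 393 CPM.

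DRG control 6 stood apart in endothelial genes, though not in these alone. It was above the other 5 control libraries for 27 of the 33 genes, and the share over all genes is not given here. Its sums of macrophage (216 CPM), leukocyte (57.3 CPM), red cell (564 CPM) and pericyte and smooth muscle genes (492 CPM) were also above the other 5. Its sum of sensory neuron and glia genes (14149 CPM) lay within their range, as did those of several other lists. Over all 33 genes, its ratio to the median of the other 5 had a median of 1.71, from 1.02 for Apln to 6.73 for Sele. Vwf reached 188 CPM there, against 28.7 to 56.8 CPM in the other control DRG libraries. Sox18 reached 10.5 CPM, against 2.04 to 3.44 CPM. The 12 pan-endothelial genes of a list outside the 33 also summed to 458 CPM in this library, against 179 to 248 CPM in the other 5. Angpt2, with 46.0 CPM against 41.8 to 49.5 CPM in the others, lay within their range. Results that rest on DRG control 6 are given with and without it, except the intervals in DRG, which include it.

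**Figure D1:**
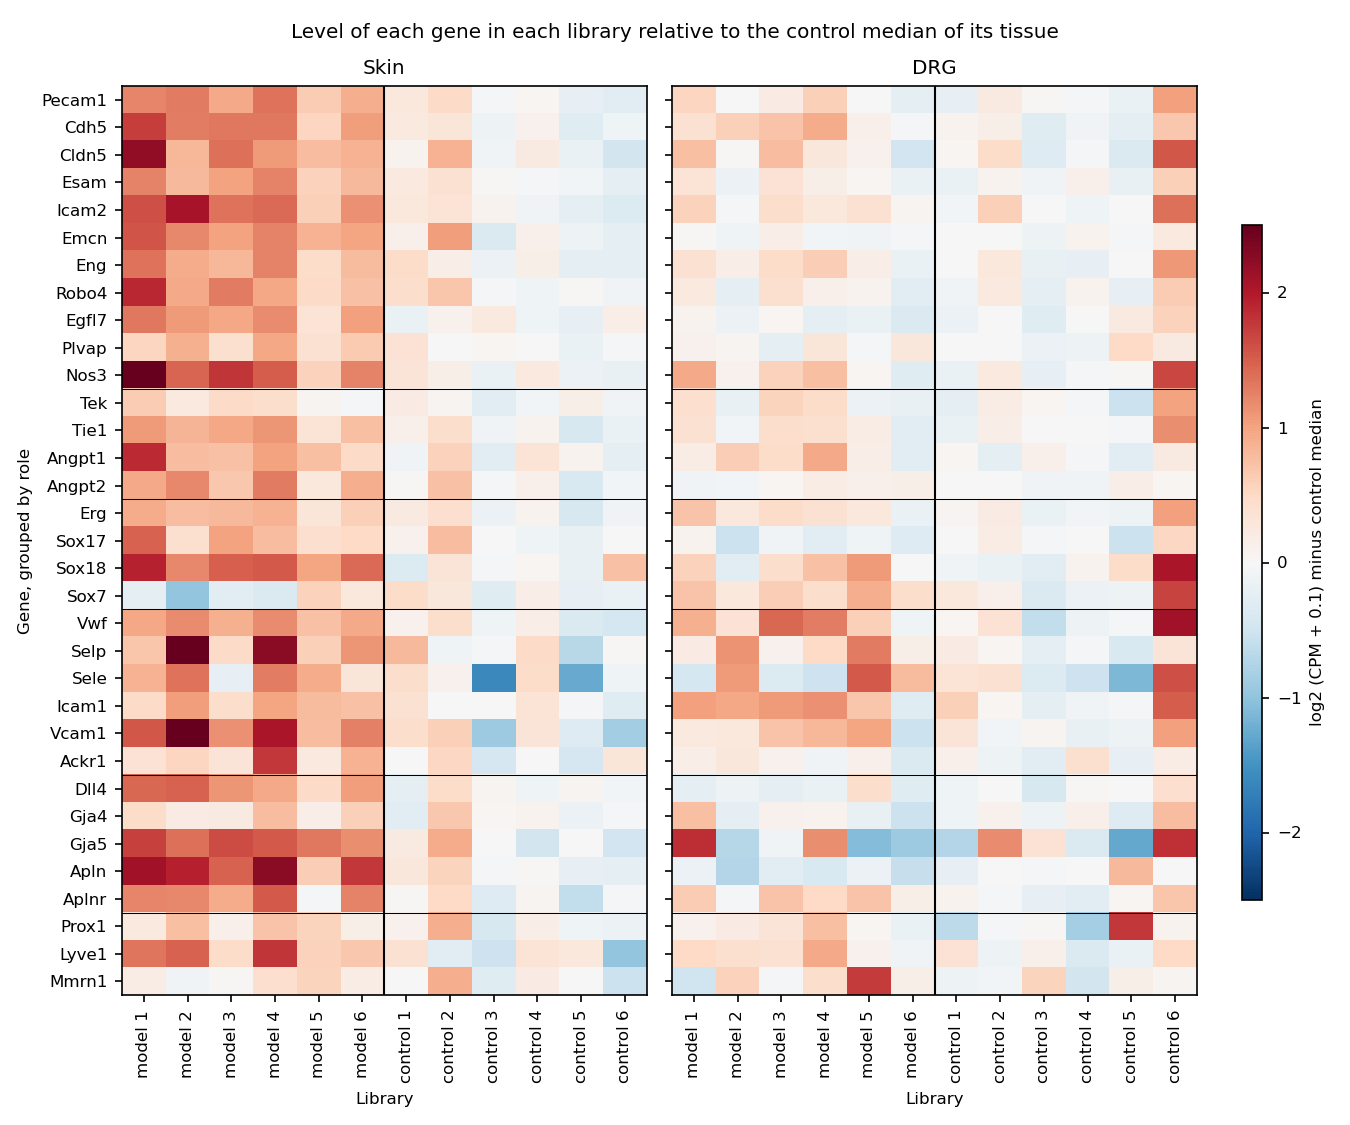
Level of each of the 33 genes in each of the 24 libraries, as log2(CPM + 0.1) minus the median of the control libraries of the same tissue, with colours limited to 2.5 either way. Model libraries are left of the black line and control libraries right of it; model skin is red for nearly all genes outside Sox7, Mmrn1 and Prox1, and in DRG the reddest column is control 6, where members sum to 718 CPM.

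In skin, 26 of the 33 endothelial genes were higher in model than in control libraries and 0 were lower, by edgeR's quasi-likelihood test with Benjamini-Hochberg (BH) adjustment over all 19526 genes tested at a threshold of 0.05. Over all genes tested, 14.1% were higher and 5.82% were lower. The median log2 fold change of the 33 genes was 1.0, against -0.02 over all genes, and the genes that passed rose by 1.53-fold to 3.42-fold. For 15 of the 33, all 6 model libraries lay above all 6 control libraries, as did 7.25% of all genes tested. In bulk tissue a larger share of endothelial cells and more RNA per endothelial cell cannot be told apart. Scaled to 12 other pan-endothelial genes instead of to the library, a setting in which the median of all genes is -0.98, 3 of the 33 were higher and 5 were lower, against 4.72% and 76.4% of all genes tested. When each of the 12 skin libraries was left out in turn, 23 of the 26 genes passed every time, and the count lay between 23 and 29.

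**Figure D2:**
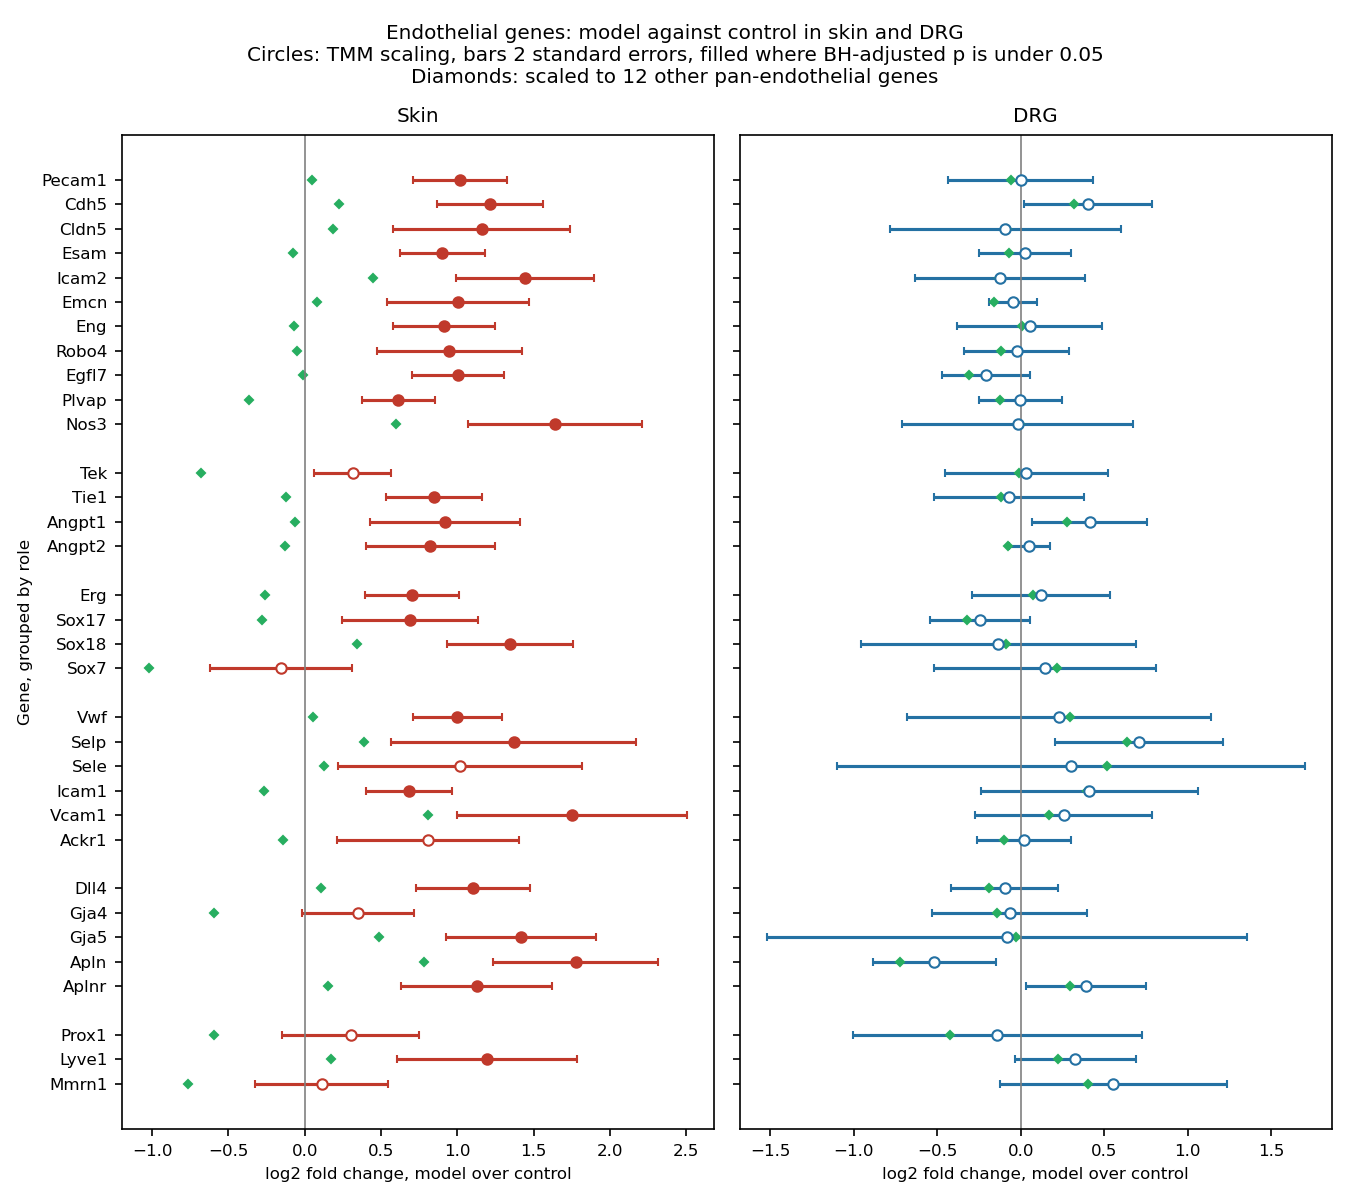
Log2 fold change, model over control, of the 33 genes in skin (left) and DRG (right), grouped by role. Circles are values with library-size (TMM) scaling, bars are 2 standard errors and filled circles passed the test; 26 circles are filled in skin and 0 in DRG. Diamonds are values scaled to 12 other pan-endothelial genes, which lie near 0 for most genes in skin.

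All 11 surface, junction and secreted genes rose in skin, by 1.53-fold to 3.12-fold under library-size scaling. Cdh5 (VE-cadherin, the adhesion protein of endothelial junctions; chr8:104101613-104144504) had 78.6, 57.5, 59.2, 59.2, 34.3 and 49.3 CPM in the 6 model libraries, against 27.98, 29.3, 21.6, 25.5, 19.2 and 22.1 CPM in the 6 control libraries (log2 fold change 1.22 ± 0.17 (SE), 2.32-fold, adjusted p = 0.000754). Every model library was above every control library. Egfl7, which encodes a secreted protein that endothelial cells deposit in the matrix, had 25.4, 21.5, 19.9, 23.04, 12.9 and 20.7 CPM in the 6 model libraries, against 8.9999, 10.9, 12.1, 9.44, 8.83 and 11.3 CPM in the 6 control libraries (log2 fold change 1.0 ± 0.15 (SE), 2.002-fold, adjusted p = 0.000929). The groups again did not overlap, and model library 5 was the lowest of its group for both genes. Egfl7 (chr2:26581083-26592682) holds the microRNA genes Mir126a and Mir126b within its span. Pecam1 (CD31, the adhesion molecule widely used to stain vessels; chr11:106654213-106715281) had 91.8, 97.6, 76.1, 101, 60.96 and 74.3 CPM in the 6 model libraries, against 47.4, 54.7, 37.96, 41.03, 34.2 and 32.8 CPM in the 6 control libraries (log2 fold change 1.02 ± 0.15 (SE), 2.02-fold, adjusted p = 0.000974).

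Among the other 8 of this group, Nos3, the endothelial nitric oxide synthase that makes the vasodilator nitric oxide, rose most. It ranged over 8.48 to 35.8 CPM in model libraries (median 15.8), against 4.92 to 7.08 CPM in control libraries (median 5.64), a rise of 3.12-fold (1.64 ± 0.29 (adjusted p = 0.00215) on the log2 scale). Nos3 overlaps Atg9b in the annotation, and whether reads were counted by strand is not given. Icam2, a constitutive adhesion molecule of resting endothelium, ranged over 3.61 to 10.2 CPM in model libraries (median 6.31), against 1.83 to 2.997 CPM in control libraries (median 2.36) (1.44 ± 0.23 (adjusted p = 0.00119)). Cldn5 (claudin-5, the main endothelial tight junction claudin) ranged over 9.68 to 26.5 CPM in model libraries (median 11.1), against 4.07 to 10.4 CPM in control libraries (median 5.63) (1.16 ± 0.29 (adjusted p = 0.0159)), with model library 1 far above the other model libraries and control library 2 within the model range. The smallest rise was that of Plvap, which forms the diaphragms of fenestrae and caveolae, at 1.53-fold (0.61 ± 0.12 (adjusted p = 0.00433)). Emcn (endomucin), Eng (endoglin, a co-receptor for TGF-beta ligands), Robo4 and Esam rose by 2.01-fold, 1.89-fold, 1.93-fold and 1.87-fold. The 12 pan-endothelial genes outside the 33 were, like the 33, chosen with earlier results of these data known. All 12 also rose in skin, with a median log2 fold change of 0.88. The most changed of these, Cd93 (76.8 ± 23.8 CPM in model skin and 18.99 ± 5.86 CPM in control skin; SD, n = 6 each; 4.04-fold, adjusted p = 0.000582), is also expressed by myeloid cells.

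Promoter sequences, from 250 bases before to 50 after a start site, were matched in RefSeq's annotation of GRCm38.p6 for 18 of the 33 genes, with 23 start sites. ERG, one of the 33, belongs to the ETS family of transcription factors, so the letters of an ETS core were looked up. Whether ERG had a part in the changes was not tested. The letters AGGAAG, a core bound by ETS factors, occurred on either strand in 12 of the 23 promoters (11 of the 18 genes) and in 35.4% of all 32851 promoters in the table. The letters AACAAT, a core bound by SOX factors, occurred in 4 of the 23 and in 10.7% of all. A match is a description of the letters and not evidence of binding. In the following 3 sequences, of genes that rose in skin and had a match, capitals mark matches to AGGAAG on either strand and, in Emcn, the match to the SOX letters. The promoter of Cldn5, which also rose, had no match. The Egfl7 sequence is that of the most upstream of its 3 annotated starts, and the most downstream, chr2:26586386-26586685, had no match.
Egfl7, chr2:26580833-26581132, plus strand: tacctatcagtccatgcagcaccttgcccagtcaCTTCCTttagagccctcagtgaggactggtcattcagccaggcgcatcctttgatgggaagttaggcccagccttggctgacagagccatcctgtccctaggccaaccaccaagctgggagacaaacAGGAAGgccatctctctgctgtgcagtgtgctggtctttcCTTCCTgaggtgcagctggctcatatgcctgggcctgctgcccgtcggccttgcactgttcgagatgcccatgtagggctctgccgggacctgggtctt
Emcn, chr3:137340828-137341127, plus strand: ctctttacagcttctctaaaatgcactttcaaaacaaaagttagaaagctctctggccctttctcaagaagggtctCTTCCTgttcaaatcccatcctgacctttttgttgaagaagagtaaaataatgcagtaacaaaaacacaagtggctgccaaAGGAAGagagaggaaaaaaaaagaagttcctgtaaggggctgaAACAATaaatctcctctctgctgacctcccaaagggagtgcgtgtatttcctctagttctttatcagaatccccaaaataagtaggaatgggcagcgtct
Tie1, chr4:118489800-118490099, minus strand: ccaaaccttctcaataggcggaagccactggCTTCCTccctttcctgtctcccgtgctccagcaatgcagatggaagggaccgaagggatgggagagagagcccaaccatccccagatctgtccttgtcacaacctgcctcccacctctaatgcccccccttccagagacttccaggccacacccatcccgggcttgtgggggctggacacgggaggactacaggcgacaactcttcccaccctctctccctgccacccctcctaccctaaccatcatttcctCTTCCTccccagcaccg

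Of the angiopoietins and Tie receptors, 3 of 4 rose in skin and the receptor Tek did not pass the test. Tie1, an orphan receptor that pairs with Tek, had 21.995, 19.1, 20.7, 22.6, 13.3 and 17.8 CPM in the 6 model libraries, against 11.5, 14.2, 9.83, 11.3, 7.98 and 9.39 CPM in the 6 control libraries (log2 fold change 0.85 ± 0.16 (SE), 1.798-fold, adjusted p = 0.00321). One control library, number 2, exceeded the lowest model library. Angpt2, the context-dependent ligand that endothelial cells store and release when activated, had 8.201, 9.85, 6.78, 10.5, 5.08 and 7.99 CPM in the 6 model libraries, against 4.29, 7.08, 4.14, 4.63, 3.24 and 3.99 CPM in the 6 control libraries (log2 fold change 0.82 ± 0.21 (SE), 1.77-fold, adjusted p = 0.0178). Angpt1, the agonist ligand made mostly by mural and other supporting cells, had 14.8, 6.82, 6.62, 8.04, 6.78 and 5.59 CPM in the 6 model libraries, against 3.71, 5.97, 3.31, 5.09, 4.25 and 3.33 CPM in the 6 control libraries (log2 fold change 0.92 ± 0.25 (SE), 1.89-fold, adjusted p = 0.0214). Model library 1 held the highest Angpt1 value, and Angpt1 no longer passed without skin control 3 (adjusted p = 0.0527) or skin control 6 (adjusted p = 0.0515). Tek (Tie2, the receptor for both ligands; chr4:94739086-94874976) ranged over 15.4 to 24.6 CPM in model libraries (median 19.99), against 13.1 to 18.2 CPM in control libraries (median 15.8), with a log2 fold change of 0.31 ± 0.13 (adjusted p = 0.0974). Tek passed when skin model 5 (adjusted p = 0.0447) or skin model 6 (adjusted p = 0.0459) was left out. The difference between Tek and the genes that rose was not tested directly. Relative to the 12 other pan-endothelial genes, all of which rose, Tek was lower, by -0.68 ± 0.17 (adjusted p = 0.00148) on the log2 scale. On that scale 76.4% of all genes tested were lower, and the median of all genes was -0.98. The value therefore does not set Tek apart from a gene without change. Angpt2 (chr8:18690263-18741562) overlaps the gene Mcph1 in the annotation, so reads of the pair may be shared if strand was not used. As TPM (the authors' values, scaled to transcript length and then to library size), the ratio of Angpt2 to Angpt1 was 0.668 to 1.74 in model skin, against 0.925 to 1.49 in control skin.

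Among the transcription factors, 3 of 4 rose in skin, and Sox7 was the only one of the 33 genes with a negative log2 fold change there. Sox18, which acts in vascular and lymphatic development, had 12.97, 7.83, 9.6997, 9.91, 6.71 and 9.07 CPM in the 6 model libraries, against 2.64, 4.21, 3.26, 3.46, 2.95 and 5.62 CPM in the 6 control libraries (log2 fold change 1.34 ± 0.21 (SE), 2.54-fold, adjusted p = 0.00103), and the groups did not overlap. Erg, an ETS factor that maintains endothelial identity, had 9.92, 8.96, 9.196, 9.52, 6.43 and 7.89 CPM in the 6 model libraries, against 6.07, 6.93, 4.68, 5.4997, 3.89 and 4.88 CPM in the 6 control libraries (log2 fold change 0.70 ± 0.15 (SE), 1.63-fold, adjusted p = 0.00830). Sox17, associated with arterial endothelium, had 13.6, 6.37, 9.72, 8.25, 6.497 and 6.85 CPM in the 6 model libraries, against 5.18, 8.27, 4.77, 4.45, 4.23 and 4.85 CPM in the 6 control libraries (log2 fold change 0.69 ± 0.22 (SE), 1.61-fold, adjusted p = 0.0466). The call for Sox17 was lost in 8 of the 12 fits that left out 1 library (skin model 1, 3 and 4, and skin control 1, 3, 4, 5 and 6), with adjusted p of up to 0.103, and passed more clearly without skin control 2 (lowest adjusted p = 0.00820). It was also lost with no low-count filter (adjusted p = 0.0634). Sox7, the remaining member of the same SOX subgroup as Sox17 and Sox18, ranged over 12.5 to 37.1 CPM in model libraries (median 20.9), against 20.2 to 34.2 CPM in control libraries (median 25.1), with a log2 fold change of -0.16 ± 0.23 (adjusted p = 0.666). Relative to the 12 pan-endothelial genes, which all rose, Sox7 was lower, by -1.02 ± 0.29 (adjusted p = 0.00454), as were 76.4% of all genes. Its highest model value was in library 5 and its lowest in library 2. Those libraries also had the highest and lowest keratinocyte gene sums in model skin, 18347 and 6846 CPM. Among control libraries, Sox7 was highest in number 1 and the keratinocyte sum in number 2. Whether cells other than endothelium held part of the Sox7 RNA was not tested. In control skin Sox7 was present at 12.4 to 21.9 TPM (median 15.9), against 3.41 to 7.37 TPM (median 4.18) for Sox18, on the same per-length scale.

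Of the 6 venular adhesion and activation genes, 4 rose in skin and Sele and Ackr1 did not pass. Vwf, the von Willebrand factor that tethers platelets and forms the core of endothelial storage granules, had 39.5, 46.04, 37.3, 45.9, 33.5 and 38.9 CPM in the 6 model libraries, against 21.7, 27.2, 18.7, 22.4, 15.7 and 14.9 CPM in the 6 control libraries (log2 fold change 1.0 ± 0.15 (SE), 1.9996-fold, adjusted p = 0.000812). Icam1, the ligand of leukocyte beta-2 integrins, had 32.3, 48.2, 31.3, 45.8, 40.2 and 38.6 CPM in the 6 model libraries, against 30.3, 22.995, 23.4, 29.3, 22.5 and 18.9 CPM in the 6 control libraries (log2 fold change 0.68 ± 0.14 (SE), 1.605-fold, adjusted p = 0.00574). The Icam1 call was lost in 1 fit of all 24 libraries (adjusted p = 0.0530). Vcam1, the ligand of the integrin alpha-4 beta-1, had 15.4, 34.3, 11.5, 21.7, 8.84 and 12.5 CPM in the 6 model libraries, against 7.08, 7.84, 2.72, 6.49, 4.11 and 2.77 CPM in the 6 control libraries (log2 fold change 1.75 ± 0.38 (SE), 3.36-fold, adjusted p = 0.00758). For all 3 genes the groups did not overlap; Vcam1 varied most within the model group, with libraries 2 and 4 highest. Selp (P-selectin, stored in granules of endothelium and platelets) ranged over 6.101 to 24.8 CPM in model libraries (median 8.24), against 2.63 to 7.68 CPM in control libraries (median 4.33) (1.37 ± 0.40 (adjusted p = 0.0324)). Its rise rested on model libraries 2 and 4, with 24.8 and 21.1 CPM, while the other 4 model libraries lay at 6.10 to 9.46 CPM. The same 2 libraries had the highest sums of platelet genes among model skin libraries, 84.6 and 78.7 CPM against 37.8 to 71.6 CPM in the other 4, and of leukocyte genes, 484 and 203 CPM against 115 to 189.9 CPM. The Selp call was lost without skin model 2 (adjusted p = 0.0584), skin model 4 (0.0766), skin control 3 (0.0707), skin control 5 (0.0720) or skin control 6 (0.0681). Sele (E-selectin, made by activated endothelium) ranged over 1.998 to 6.097 CPM in model libraries (median 4.38), against 0.693 to 3.21 CPM in control libraries (median 2.32) (1.02 ± 0.40 (adjusted p = 0.0913)). For Sele, 4 of the 6 model libraries lay above all control libraries. Ackr1 (the atypical chemokine receptor of venules, also named Duffy antigen) ranged over 1.55 to 4.63 CPM in model libraries (median 1.79), against 0.936 to 1.87 CPM in control libraries (median 1.28) (0.81 ± 0.30 (adjusted p = 0.0752)), and passed without skin model 5 (adjusted p = 0.0459) or skin control 2 (adjusted p = 0.0395). Ackr1 overlaps Cadm3 in the annotation. DESeq2 called both Sele (adjusted p = 0.0445) and Ackr1 (adjusted p = 0.0382) as higher.

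The promoters of 3 of these adhesion genes are shown because among the adhesion genes theirs were the largest differences between control skin and control DRG, given with the tissue levels. Capitals mark the TATA box letters, TATAAA, and matches to the ETS core on either strand. TATAAA occurred in 4 of the 23 promoters of the endothelial genes, among them Sele and Icam1, and in 13.6% of all promoters; it was not among the letters of the Selp window. The NF-kB consensus, read here as GGG, a purine, any 2 bases, 2 pyrimidines and CC with no mismatch allowed, was found on either strand in 1 of the 23, that of Dll4, and in 8.46% of all promoters. Sequences with a mismatch were not counted, so a promoter without a match may still hold a site.
Sele, chr1:164047984-164048283, plus strand: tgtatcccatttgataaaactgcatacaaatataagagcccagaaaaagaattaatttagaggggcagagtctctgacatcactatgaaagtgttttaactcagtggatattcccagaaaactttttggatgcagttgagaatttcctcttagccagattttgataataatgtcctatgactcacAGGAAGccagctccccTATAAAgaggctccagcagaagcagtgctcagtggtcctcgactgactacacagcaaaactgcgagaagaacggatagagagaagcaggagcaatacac
Selp, chr1:164115014-164115313, plus strand: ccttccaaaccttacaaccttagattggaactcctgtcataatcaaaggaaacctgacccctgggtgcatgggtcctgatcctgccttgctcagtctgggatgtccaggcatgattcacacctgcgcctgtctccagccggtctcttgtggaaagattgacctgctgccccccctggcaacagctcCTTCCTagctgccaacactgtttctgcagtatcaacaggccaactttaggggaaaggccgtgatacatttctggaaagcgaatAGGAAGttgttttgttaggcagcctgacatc
Icam1, chr9:21015690-21015989, plus strand: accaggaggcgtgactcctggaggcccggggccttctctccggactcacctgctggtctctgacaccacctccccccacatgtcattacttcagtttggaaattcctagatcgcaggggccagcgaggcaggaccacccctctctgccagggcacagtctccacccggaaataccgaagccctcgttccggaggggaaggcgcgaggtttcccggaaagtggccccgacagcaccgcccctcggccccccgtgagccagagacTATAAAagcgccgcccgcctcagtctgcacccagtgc

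Venular adhesion molecules act on leukocytes and platelets. Some marker genes of these cells, and of red cells, were also higher in model skin. All 10 macrophage genes rose, and summed to 756 to 2261 CPM in model skin, against 224 to 580 CPM in control skin. Of the leukocyte genes 7 of 9 tested rose, with Ptprc at 6.27-fold, adjusted p = 0.00116. Of 4 platelet and megakaryocyte genes tested, Itgb3 and Pf4 rose, and the 8 genes of that list summed to 37.8 to 84.6 CPM in model skin, against 18.8 to 32.1 CPM in control skin. Of 5 red cell genes tested 4 rose, and that list summed to 46.3 to 206 CPM in model skin and 26.8 to 80.8 CPM in control skin, so that the groups overlapped. Their part in the rise of Selp, Vwf, Icam1 and Vcam1, which leukocytes, platelets or stromal cells can also express, was not tested. Model library 5 had the lowest macrophage sum (756 CPM) and the lowest endothelial sum (489 CPM) of the model skin libraries.

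Among the arterial and tip cell genes, 4 of 5 rose in skin. Apln (apelin, a peptide secreted by sprouting tip cells; chrX:48025146-48034853) had 4.702, 4.24, 3.02, 5.29, 1.62 and 3.75 CPM in the 6 model libraries, against 1.27, 1.55, 1.01, 1.05, 0.872 and 0.857 CPM in the 6 control libraries (log2 fold change 1.78 ± 0.27 (SE), 3.42-fold, adjusted p = 0.000989), with no overlap between groups. This was the largest fold change of the 33 genes in skin. Dll4, the Notch ligand of tip and arterial cells, had 6.15, 6.26, 4.82, 4.36, 3.0999 and 4.63 CPM in the 6 model libraries, against 1.83, 3.06, 2.31, 2.02, 2.32 and 2.09 CPM in the 6 control libraries (log2 fold change 1.10 ± 0.19 (SE), 2.15-fold, adjusted p = 0.00182). Gja5 (connexin 40, an arterial gap junction protein) had 4.1005, 3.25, 3.85, 3.62, 3.0999 and 2.79 CPM in the 6 model libraries, against 1.41, 2.34, 1.18, 0.834, 1.19 and 0.817 CPM in the 6 control libraries (log2 fold change 1.42 ± 0.25 (SE), 2.67-fold, adjusted p = 0.00206). The model libraries of both genes lay above all controls, but the Gja5 call was lost in 1 fit of all 24 libraries (adjusted p = 0.0558). Aplnr, the apelin receptor, ranged over 5.82 to 17.4 CPM in model libraries (median 13.9), against 3.85 to 8.39 CPM in control libraries (median 5.92) (1.13 ± 0.25 (adjusted p = 0.00814)). Gja4 (connexin 37), the other arterial connexin, ranged over 3.03 to 4.69 CPM in model libraries (median 3.45), against 2.19 to 4.36 CPM in control libraries (median 2.69) (0.35 ± 0.18 (adjusted p = 0.196)), and passed only without skin control 2 (adjusted p = 0.0252). Relative to the 12 pan-endothelial genes, which all rose, Gja4 was lower, by -0.60 ± 0.20 (adjusted p = 0.0108), as were 76.4% of all genes. Of 8 other arterial genes, 3 rose (Sema3g, Notch4 and Bmx, with Sema3g at 1.96-fold, adjusted p = 0.00340) and 3 fell (Efnb2, Jag2 and Unc5b). The 3 that fell were each at over 100 CPM in control skin, where Pecam1 averaged 41.4 CPM. Unc5b had 108 ± 28.1 CPM in model skin and 184 ± 49.8 CPM in control skin. Whether they fell in endothelium or in other skin cells was not tested. Of 8 other tip cell genes 5 rose, those with the smallest p being Plaur (3.22-fold, adjusted p = 0.00183), Nid2 (2.23-fold, adjusted p = 0.00239) and Kcne3 (1.71-fold, adjusted p = 0.0202). Of 8 venous genes 1 rose, Nr2f2 (COUP-TFII, which specifies venous identity; 1.61-fold, adjusted p = 0.01597).

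Of the 3 lymphatic genes, Lyve1 alone passed the test in skin. Lyve1, a hyaluronan receptor of lymphatic capillaries that some tissue macrophages also carry, had 29.7, 32.6, 16.1, 40.8, 17.4 and 18.7 CPM in the 6 model libraries, against 15.3, 9.69, 8.13, 14.9, 14.1 and 5.86 CPM in the 6 control libraries (log2 fold change 1.19 ± 0.29 (SE), 2.29-fold, adjusted p = 0.0149), with no overlap. Prox1, the master regulator of lymphatic identity, ranged over 3.599 to 5.54 CPM in model libraries (median 4.36), against 2.44 to 6.25 CPM in control libraries (median 3.28) (0.30 ± 0.22 (adjusted p = 0.361)). Prox1 passed only without skin control 2 (adjusted p = 0.0358). Mmrn1 (multimerin 1, found in lymphatic endothelium and platelets) ranged over 14.4 to 22.5 CPM in model libraries (median 17.3), against 10.5 to 28.8 CPM in control libraries (median 15.2) (0.11 ± 0.22 (adjusted p = 0.752)). Relative to the 12 pan-endothelial genes, which all rose, Prox1 and Mmrn1 were lower, by -0.59 ± 0.22 (adjusted p = 0.0198) and -0.76 ± 0.22 (adjusted p = 0.00502) on the log2 scale, while Lyve1 differed by 0.17 ± 0.27 (adjusted p = 0.556). On that scale 76.4% of all genes were lower. Of 8 other lymphatic genes 4 rose, Stab2 (6.43-fold, adjusted p = 0.00433), Itga9 (1.57-fold, adjusted p = 0.0144), Pdpn and Flt4. Macrophage genes, including Mrc1 (3.45-fold, adjusted p = 0.00391) and Folr2 (5.84-fold, adjusted p = 0.000622), rose in the same libraries, and their part in the Lyve1 and Stab2 values was not tested.

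**Figure D3:**
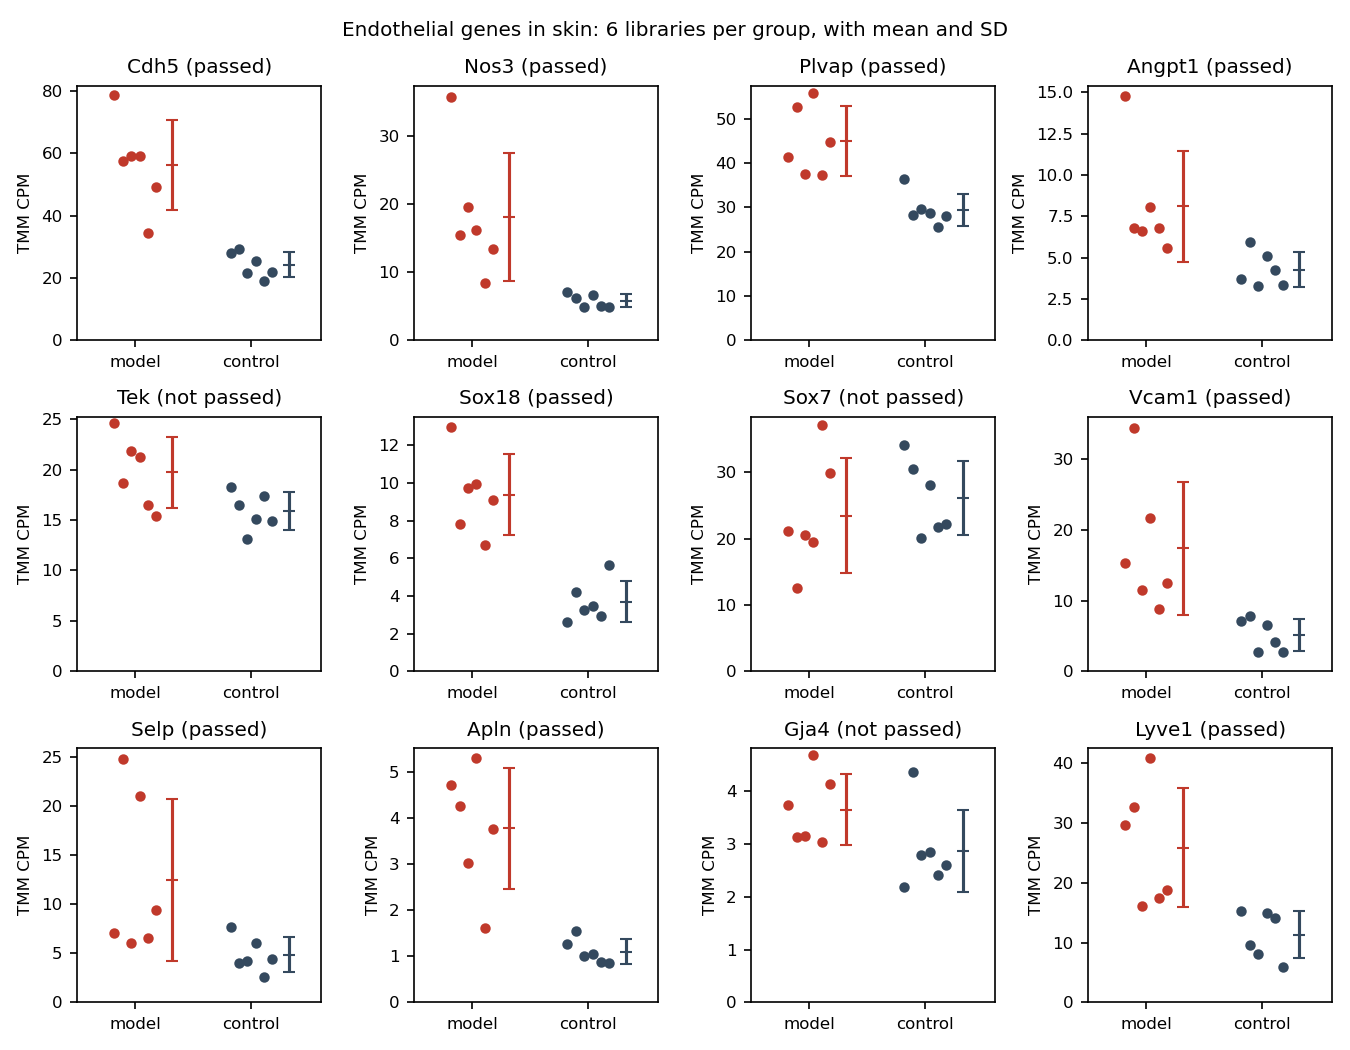
TMM-scaled CPM of 12 of the genes in the 6 model and 6 control skin libraries, with the mean and SD beside each group; each axis starts at 0. Cdh5, Nos3, Plvap, Sox18, Vcam1, Apln and Lyve1 do not overlap between groups, Selp rests on 2 high model libraries at 24.8 and 21.1 CPM, and Tek, Sox7 and Gja4 did not pass the test.

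Scaling to the 12 pan-endothelial genes, all of which rose, asked which of the 33 changed more or less than they did in skin. Relative to those genes, 3 were higher: Apln by 0.78 ± 0.22 (adjusted p = 0.00391), Vcam1 by 0.81 ± 0.29 (adjusted p = 0.01902) and Nos3 by 0.60 ± 0.21 (adjusted p = 0.0157) on the log2 scale. Lower were 5: Sox7, Mmrn1, Tek, Gja4 and Prox1. As 76.4% of all genes were lower on this scale, a gene without change also comes out lower. The other 25 genes did not pass, with values from -0.36 for Plvap to 0.49 for Gja5. The 5 that were lower had not passed the test under library-size scaling, where their log2 fold changes were -0.16, 0.11, 0.31, 0.35 and 0.30. Adipocyte genes, which mark a vessel-rich layer of the skin, also differed between groups: all 8 rose, and they summed to 1524 to 12333 CPM in model skin, against 1228 to 1544 CPM in control skin. The value of 12333 CPM was that of model library 1, which also held the highest model value of 14 of the 33 genes: Cdh5, Cldn5, Esam, Emcn, Eng, Robo4, Egfl7, Nos3, Tek, Angpt1, Erg, Sox17, Sox18 and Gja5. Its 33 genes summed to 743 CPM, and its 12 other pan-endothelial genes to 399 CPM, while the remaining model libraries had sums of 192 to 299 CPM. Without model library 1, all the genes that passed in skin passed except Sox17 (adjusted p = 0.102). Of 8 fibroblast genes 4 rose, and they summed to 9592 to 16654 CPM in model skin, against 4723 to 9830 CPM in control skin. The part that more fat or stroma in the sampled tissue had in the endothelial values was not tested.

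In DRG, none of the 33 genes passed edgeR's test, and 3 were higher and 1 was lower at an unadjusted p under 0.05. DESeq2 also called 0. Over all 19509 genes tested in DRG, 0.0974% were higher and 0% were lower after adjustment, and 9.34% had an unadjusted p under 0.05. The median log2 fold change of the 33 genes was 0.02, against -0.01 over all genes. It was positive for 17 genes and negative for 16, and the groups overlapped for all 33. The lowest adjusted p was 0.468, shared by Selp and Apln. Selp had 0.879, 1.75, 0.81001, 1.101, 1.98 and 0.844 CPM in the 6 model libraries, against 0.883, 0.779, 0.618, 0.717, 0.552 and 0.957 CPM in the 6 control libraries (0.71 ± 0.25 (adjusted p = 0.468)), with model libraries 2 and 5 highest. DRG model 5 also had far more platelet gene RNA (111 CPM against 27.3 to 52.2 CPM in the remaining 5), red cell gene RNA (1665 CPM against 136 to 519 CPM) and leukocyte gene RNA (152 CPM against 28.3 to 50.02 CPM). DRG model 2 was next highest for all 3 lists, and their part in the Selp values was not tested. Apln had 1.91, 1.24, 1.76, 1.603, 1.91 and 1.39 CPM in the 6 model libraries, against 1.82, 2.13, 2.04, 2.11, 3.77 and 2.15 CPM in the 6 control libraries (-0.52 ± 0.18 (adjusted p = 0.468)), with control library 5 highest. The other genes at an unadjusted p under 0.05, Aplnr and Angpt1, had log2 fold changes of 0.39 ± 0.18 (adjusted p = 0.533) and 0.41 ± 0.17 (adjusted p = 0.5101).

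The intervals show how much change the DRG data allow with DRG control 6 included. Intervals without that library are not given, and the values then shifted upward, as described below. For 26 of the 33 genes, an interval of 2 standard errors either side lay within a 2-fold change in both directions. For 6 genes it included a 2-fold increase. The narrowest was that of Angpt2, which had 41.5 to 50.6 CPM in model libraries (median 46.9), against 41.8 to 49.5 CPM in control libraries (median 44.4) (0.05 ± 0.06 (adjusted p = 0.825)). The widest was that of Gja5, with 0.196 to 2.15 CPM in model libraries (median 0.385), against 0.158 to 2.12 CPM in control libraries (median 0.544). Sele was close to the detection limit in DRG, at 1 to 43 counts per library.

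Without DRG control 6, 0 genes passed as well, but the values shifted upward. The median log2 fold change was then 0.30, 27 values were positive and 6 negative, and 11 genes were higher and 1 was lower at an unadjusted p under 0.05. The share of all genes in that fit is not given here, and it was 9.34% with all libraries. The counts are therefore not read as a result about the 33 genes. Vwf then had a log2 fold change of 0.87, against 0.23 with all libraries. Sele, Icam1, Sox7 and Cdh5 had 1.10, 0.77, 0.65 and 0.54, against 0.30, 0.41, 0.15 and 0.40 with all libraries. Vwf itself had 81.1, 56.5, 119.9, 107, 66.8 and 40.7 CPM in the 6 model libraries, against 45.7, 56.8, 28.7, 40.3, 42.3 and 188 CPM in the 6 control libraries. Apart from control 6, 4 of the model libraries were above all controls for Vwf, and model libraries 2 and 6 were not. Scaled to the 12 pan-endothelial genes, a setting in which the median of all genes in DRG is -0.14, 0 of the 33 passed in DRG, where 0.753% of all genes were higher and 0.0461% were lower. No gene of any list of endothelial or other cell types passed in DRG.

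The difference between the tissues was tested directly, as the log2 fold change in skin minus that in DRG, over 17251 genes in 1 fit of 24 libraries. It was positive for 17 of the 33 genes and negative for 0 by edgeR's test, against 10.6% and 6.43% of all genes tested. The largest difference was that of Apln, at 2.25 ± 0.33 (adjusted p = 0.000101), which was higher in model skin and had a negative value in model DRG. Nos3 differed by 1.61 ± 0.46 (adjusted p = 0.0189), Icam2 by 1.52 ± 0.35 (adjusted p = 0.00523), Vcam1 by 1.45 ± 0.47 (adjusted p = 0.0357), Sox18 by 1.43 ± 0.47 (adjusted p = 0.0411), Egfl7 by 1.16 ± 0.20 (adjusted p = 0.000484) and Dll4 by 1.15 ± 0.24 (adjusted p = 0.00263). The other 10 were Emcn, Pecam1, Robo4, Sox17, Tie1, Esam, Eng, Cdh5, Angpt2 and Plvap, with differences from 0.57 to 1.01. By role, these were 10 of 11 surface and junction genes, 2 of 4 angiopoietins and Tie receptors, 2 of 4 transcription factors, 2 of 5 arterial and tip cell genes, 1 of 6 venular genes and 0 of 3 lymphatic genes. Vwf, Selp, Sele and Icam1 differed by 0.73 ± 0.48 (adjusted p = 0.306), 0.61 ± 0.49 (adjusted p = 0.411), 0.67 ± 0.82 (adjusted p = 0.5999) and 0.23 ± 0.36 (adjusted p = 0.698).

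Single libraries and the low-count filter moved this count. With no filter it was 11. Without DRG control 6 it was 10, and all 10 were among the 17; Cdh5, Eng, Robo4, Sox17, Sox18, Tie1 and Vcam1 were lost. Apln then differed by 2.27 (adjusted p = 0.000238), Egfl7 by 1.04 (adjusted p = 0.000791), Icam2 by 1.20 (adjusted p = 0.00739) and Dll4 by 1.05 (adjusted p = 0.00577). The count was also 10 without skin control 5, and 11 without skin model 1, skin model 4, skin control 3, skin control 6 or DRG model 2. Over all 24 such fits, 9 of the 17 genes passed every time: Apln, Egfl7, Emcn, Dll4, Esam, Icam2, Angpt2, Pecam1 and Nos3. Eng was lost in 16 of the fits, Cdh5 in 15 and Sox18 in 13.

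Between the control tissues, 8 of the 33 genes were higher in skin than in DRG and 13 were lower, relative to library size. Of all 17251 genes tested, 41.6% were higher and 40.6% were lower. The genes higher in control skin included 3 adhesion genes, Sele (9.07-fold), Icam1 (7.89-fold) and Selp (6.24-fold), and all 3 lymphatic genes, Mmrn1 (11.9-fold), Prox1 (4.35-fold) and Lyve1 (1.56-fold). Sox7 differed most, at 18.2-fold (log2 4.19 ± 0.33, adjusted p = 4e-11). Icam1 was present at 15.6 to 24.6 TPM (median 18.5) in control skin, against 1.79 to 6.12 TPM (median 2.07) in control DRG. Mmrn1 was present at 4.81 to 13.1 TPM (median 6.86) in control skin, against 0.468 to 1.05 TPM (median 0.679) in control DRG. Plvap, the marker of fenestrated and other permeable vessels, was 2.83-fold higher in control skin (log2 1.499 ± 0.13, adjusted p = 1.36e-10).

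Angpt2 was the gene most strongly lower in control skin than in control DRG, by 10.2-fold (log2 -3.34 ± 0.16, adjusted p = 2.62e-15). It was present at 1.896 to 4.18 TPM (median 2.45) in control skin, against 28.5 to 33.9 TPM (median 30.9) in control DRG. The ratio of Angpt2 to Angpt1 in TPM was 0.925 to 1.49 in control skin, against 7.47 to 11.6 in control DRG. Within DRG, the ratio was 5.11 to 11.8 in model libraries and 7.47 to 11.6 in control libraries. In DRG control 6, Angpt2 was 1.05 times the median of the other control DRG libraries, against 2.07 times for Pecam1 and 2.26 times for Tie1. Which cells held the Angpt2 RNA of DRG, and whether reads of Mcph1 added to it, was not tested. Ackr1, Vwf, Egfl7, Cldn5 and Emcn were lower in control skin by 3.505-fold, 3.44-fold, 3.11-fold, 2.88-fold and 2.67-fold. Sox17, Vcam1 and Apln were lower by 2.297-fold, 2.295-fold and 2.203-fold, and Esam, Angpt1, Tie1 and Dll4 by 1.43-fold to 1.84-fold. Pecam1 had 21.1 to 34.9 TPM (median 24.2) in control skin, against 19.97 to 45.7 TPM (median 22.7) in control DRG (log2 0.19 ± 0.19, adjusted p = 0.351), and Cdh5 and Tek also did not pass. Without DRG control 6, 12 were higher and 12 were lower: Pecam1 (adjusted p = 0.0165), Eng (0.0104), Gja4 (0.0271) and Aplnr then passed as higher in skin, and Tie1 (0.0810) was lost.

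**Figure D4:**
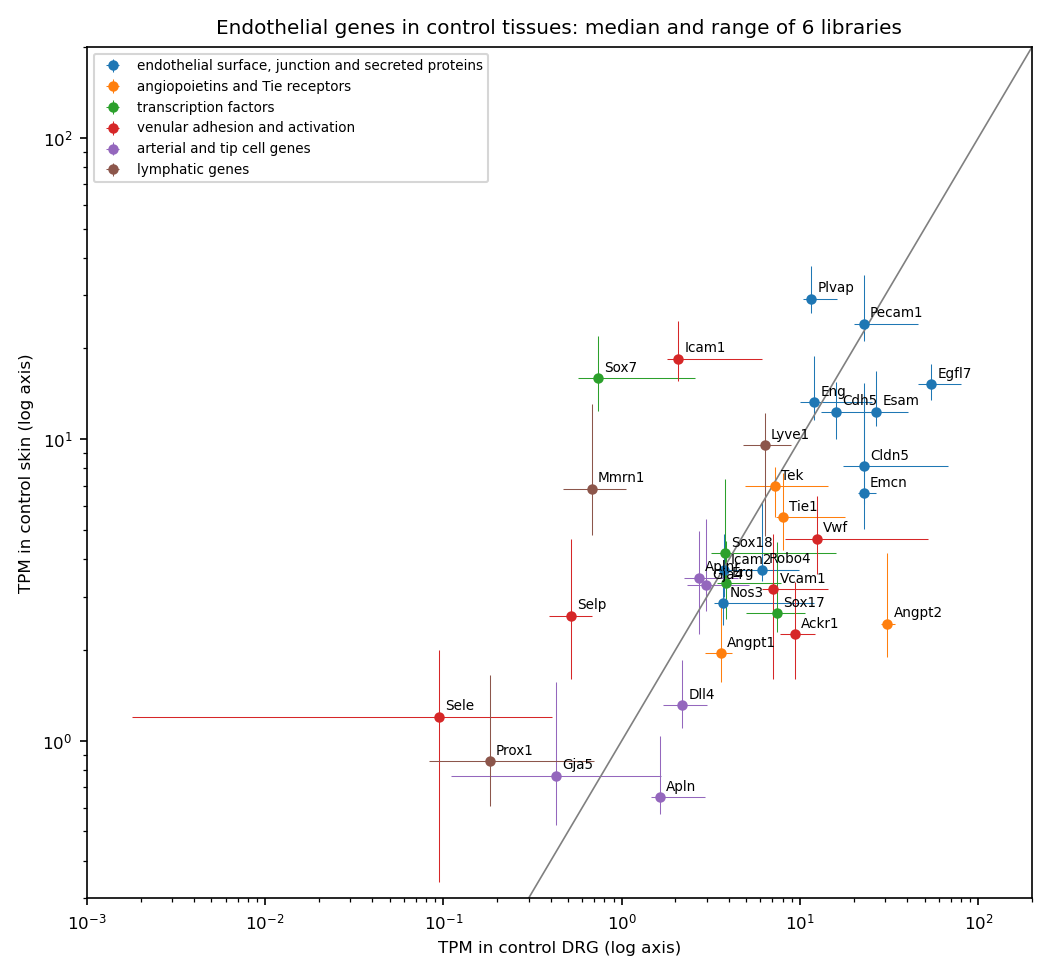
Median TPM of the 33 genes in the 6 control skin libraries (vertical, log axis) and the 6 control DRG libraries (horizontal, log axis), coloured by role; thin lines span the lowest to the highest library and the grey diagonal marks equal levels. Sox7, Mmrn1, Icam1, Selp and Sele lie far above the diagonal, and Angpt2, at a median of 2.45 TPM in skin and 30.9 TPM in DRG, far below it.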

How the data were processed

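Sample titles gave the groups. HISAT2 2.1.0, StringTie 2.1.3b, Trimmomatic, bcl2fastq 2.20.0 and the build GRCm38/mm10 are named in the submitters' processing notes; the sources used here do not state the counter, its strand setting or its filters. The deposited read counts are whole numbers, not normalized. TPM values were computed by the authors and used here, untested, for levels and ratios between genes and for levels between the control tissues. FPKM values deposited by the authors were not used.

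Counts were tested in edgeR 4.0.16 (R 4.3.3) with filterByExpr, TMM scaling, robust quasi-likelihood fits and BH adjustment over all genes tested. Each tissue was fitted alone; the tissue difference and the control tissues were contrasts in 1 fit of 24 libraries. Standard errors are the log2 fold change over the root of F. For the relative scale, library factors equalised the mean log2 CPM of Clec14a, Ptprb, Adgrl4, Adgrf5, Ecscr, Myct1, Mmrn2, Ramp2, Arhgef15, She, Cd93 and Tal1. The 33 genes, the lists and the tests were chosen with earlier results of these data known. In each role, per-library values are given for up to 3 genes that passed in skin, by smallest p, and up to 3 genes per other list are named. Coordinates and promoters are RefSeq's on GRCm38.p6. Scripts were tested on simulated data. No duplicate libraries were found (lowest chi-square per gene 9.13 over 60 pairs). Alternatives were DESeq2 1.42.0, RLE factors, no filter, 1 fit of 24 libraries, a replicate block, other scalings and leaving out each library. Depth and intervals cover counting error and library spread in this sample alone.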

Additional observations from a re-analysis of the deposited data

Results flagged for a closer look

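In 30 of 132 sets of 6 libraries (33 genes in 4 groups), 1 library lay far from the other 5 by Dixon's criterion, against 6.6 expected by chance at 1 in 20. The 6.6 takes the values as normally distributed and the sets as independent. CPM was used without logs, and many genes can be high together in 1 library, so the 2 counts are not strictly comparable. All 30 were high, and 17 of them fell on DRG control 6. In that library, with the range of the other 5 control DRG libraries after each value, the levels were as follows. The junction and surface genes had Pecam1 61.2 CPM against 26.2 to 35.5, Cldn5 38.8 CPM against 10.1 to 18.1, Esam 30.3 CPM against 17.6 to 21.9, Icam2 5.18 CPM against 1.802 to 3.003, Eng 35.7 CPM against 14.4 to 19.95 and Nos3 20.01 CPM against 5.36 to 7.41. The Tie receptors and transcription factors had Tek 27.8 CPM against 9.44 to 15.8, Tie1 28.3 CPM against 11.2 to 14.1, Erg 10.1 CPM against 4.36 to 5.63, Sox18 10.5 CPM against 2.04 to 3.44 and Sox7 3.44 CPM against 0.752 to 1.21. The remaining genes had Vwf 188 CPM against 28.7 to 56.8, Sele 0.675 CPM against 0.0158 to 0.228, Icam1 6.42 CPM against 1.84 to 3.35, Vcam1 19.9 CPM against 8.56 to 12.1, Gja4 3.53 CPM against 1.61 to 2.21 and Aplnr 6.48 CPM against 3.27 to 4.21. The 12 other pan-endothelial genes summed to 458 CPM there, against 179 to 248 CPM in the other control DRG libraries, and the pericyte and smooth muscle genes to 492 CPM, against 304 to 397 CPM. It was also above the other 5 for the sums of macrophage genes (216 CPM against 113 to 158 CPM), leukocyte genes (57.3 CPM against 30.2 to 38.5 CPM), red cell genes (564 CPM against 205 to 416 CPM) and barrier-type endothelial genes (577 CPM against 352 to 426 CPM). Its sensory neuron and glia genes summed to 14149 CPM, within the 10214 to 14810 CPM of the others. The cause was not tested.

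Skin control 2 was high for 5 genes, with Emcn 9.75 CPM against 3.62 to 5.13, Angpt2 7.08 CPM against 3.24 to 4.63, Sox17 8.27 CPM against 4.23 to 5.18, Gja4 4.36 CPM against 2.19 to 2.86 and Prox1 6.25 CPM against 2.44 to 3.71 in the other 5 libraries of its group. Skin control 1 was high for Plvap 36.4 CPM against 25.5 to 29.6 in the other 5 libraries of its group. Skin model 1 was high for Cldn5 26.5 CPM against 9.68 to 14.7 and Angpt1 14.8 CPM against 5.59 to 8.04 in the other 5 libraries of its group. Skin model 4 was high for Ackr1 4.63 CPM against 1.55 to 2.43 in the other 5 libraries of its group. DRG model 5 was high for Dll4 4.28 CPM against 2.49 to 2.83 and Mmrn1 4.56 CPM against 0.879 to 1.96 in the other 5 libraries of its group. The platelet genes of DRG model 5 summed to 111 CPM against 27.3 to 52.2 CPM in those 5, its red cell genes to 1665 CPM against 136 to 519 CPM and its leukocyte genes to 152 CPM against 28.3 to 50.02 CPM; their part in the Mmrn1 value, a gene platelets also express, was not tested. DRG control 5 was high for Apln 3.77 CPM against 1.82 to 2.15 and Prox1 2.304 CPM against 0.291 to 0.643 in the other 5 libraries of its group. 

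The change in model against control libraries differed between skin and DRG for 17 genes by edgeR's test of the difference itself, all with a larger value in skin. On the log2 scale the skin change minus the DRG change was 0.97 for Pecam1, 0.77 for Cdh5, 0.83 for Esam, 1.52 for Icam2, 1.01 for Emcn, 0.81 for Eng, 0.92 for Robo4, 1.16 for Egfl7, 0.57 for Plvap, 1.61 for Nos3, 0.87 for Tie1, 0.73 for Angpt2, 0.89 for Sox17, 1.43 for Sox18, 1.45 for Vcam1, 1.15 for Dll4 and 2.25 for Apln. Of these, 7 (Cdh5, Eng, Robo4, Sox17, Sox18, Tie1 and Vcam1) did not pass without DRG control 6.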

How the results depend on the processing

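In skin the 26 genes called higher with TMM were 26 with RLE factors, 25 with no filter, 25 in 1 fit of 24 libraries, 28 with DESeq2 and 23 to 29 when 1 library was left out, with 0 lower in each. Only scaling to the 12 pan-endothelial genes changed this: 3 were then higher and 5 lower. Under it the sign turned, relative to library-size scaling, for Esam (-0.0775), Eng (-0.0732), Robo4 (-0.0494), Egfl7 (-0.0146), Plvap (-0.36), Tek (-0.68), Tie1 (-0.12), Angpt1 (-0.0649), Angpt2 (-0.13), Erg (-0.26), Sox17 (-0.28), Icam1 (-0.27), Ackr1 (-0.14), Gja4 (-0.60), Prox1 (-0.59) and Mmrn1 (-0.76), of which Tek, Gja4, Prox1 and Mmrn1 passed as lower. This follows from a reference that itself rose. With 6 of the 12 genes setting the scale, 4 were higher and 5 lower. In DRG 0 genes passed under every alternative and without each library. The tissue difference, 17 genes, was 17 with RLE factors, 18 with DESeq2 and 11 with no filter; without 1 library it lay between 10 and 20, and the cause was not tested. Between control tissues, the count of higher genes lay between 7 and 12 and that of lower genes between 12 and 14 without 1 library. In 1 fit of 24 libraries Icam1 (adjusted p = 0.0530) and Gja5 (0.0558) no longer passed in skin.

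The libraries share replicate numbers, but the labels do not say that a number marks an animal. Same-numbered model and control libraries correlated at -0.56 to 0.31 in skin and -0.53 to -0.03 in DRG, and 0 of the 6 skin model libraries correlated best with its own number. With the replicate block, 25 genes were higher in skin (Sox17 and Selp lost, Sele gained), 0 in DRG, and 14 passed for the tissue difference; on the pan-endothelial scale 4 were higher and 5 lower.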

Other observations

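Leukocyte receptors of the endothelial adhesion molecules rose with their ligands in skin: 9 of 10 passed, against 14.1% of all genes tested, and they summed to 890.0 to 1457 CPM in model skin, against 567 to 833 CPM in control skin. Itgb2 and Itgam, the chains of the beta-2 integrin that binds ICAM-1, rose (8.19-fold, adjusted p = 0.000548 and 8.56-fold, adjusted p = 0.000583). Selplg, which encodes the P-selectin ligand of leukocytes, also rose (39.8 ± 14.7 CPM in model skin and 8.09 ± 2.902 CPM in control skin; SD, n = 6 each; 4.91-fold, adjusted p = 0.000593). In DRG 0 of the 10 passed.

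Of 12 pericyte and smooth muscle genes, which mark the cells that wrap vessels, 2 rose in skin: Pdgfrb (68.9 ± 15.1 CPM in model skin and 34.6 ± 14.01 CPM in control skin; SD, n = 6 each; 1.99-fold, adjusted p = 0.0141) and Rgs5 (1.53-fold, adjusted p = 0.0143). Their sum overlapped between groups, at 609 to 1094 CPM in model skin and 600.3 to 1082 CPM in control skin. Of 7 tested genes of barrier-type endothelium 0 rose and 3 fell: Ocln (0.703-fold, adjusted p = 0.00609), Mfsd2a (0.591-fold, adjusted p = 0.0132) and Tjp1 (0.754-fold, adjusted p = 0.0163), of which Ocln and Tjp1 are also epithelial tight junction genes. Of 6 keratinocyte genes 1 fell, Ivl (0.561-fold, adjusted p = 0.0427), and 0 of 8 skeletal muscle genes and 0 of 6 tested sensory neuron and glia genes passed in skin.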
